A study of Homo sapiens with 6 samples.

Results

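Aminoacyl-tRNA synthetases join each amino acid to its transfer RNA (tRNA), the step that fixes the genetic code before a protein is made. Human cells keep separate sets for cytosol and mitochondria, and the genes of both lie in the nucleus. The genes studied here were the 38 of 60604 in the deposited count tables whose identifiers map to a given list of symbols: 19 for cytosolic synthetases, 16 for mitochondrial synthetases (symbols ending in 2) and 3 for scaffold proteins that hold several cytosolic synthetases in one complex. Each symbol matched 1 row. GARS1 and KARS1 are counted with the cytosolic set but also supply the mitochondrial glycyl and lysyl enzymes. EPRS1 carries the glutamyl and prolyl activities in one protein. QARS1 has no mitochondrial partner in the list, because mitochondria load glutamate onto the glutamine tRNA with EARS2 and then amidate it.

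The libraries came from AGS, an established human gastric adenocarcinoma line. In the control group (3 libraries) cells received 0 mM indomethacin, with no time given in the labels. In the indomethacin group (3 libraries) they received 0.5 mM of it, a non-steroidal anti-inflammatory drug that inhibits cyclooxygenases, for 24 h. Separate cultures are not stated for the libraries of a group, and p-values therefore measure only how far these libraries spread, which may be technical.

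Total counts were between 17535435 and 23221077 per library, and levels are given as CPM, each gene's count scaled to the library total after TMM correction of that total. The 6 markers of the epithelial line, all well expressed, summed to 3299 to 3799 CPM in control and 3030 to 3352 CPM in indomethacin libraries, mostly from 3 keratins. Within that sum EPCAM (log2 fold change -0.68) and KRT8 (-0.55) fell, CLDN4 (1.70) and CLDN7 (1.05) rose, and KRT18 and KRT19 did not pass. The 4 leukocyte and 3 endothelial markers were each under 1 CPM in all 6 libraries. Of the 5 fibroblast markers 3 were under 1 CPM in all 6. The sum of all 5 was 6.47 to 8.57 CPM in control and 9.67 to 11.4 CPM in indomethacin libraries. The other 2 went opposite ways, COL1A1 from 4.93 ± 1.31 to 10.03 ± 0.950 CPM and PDGFRB from 2.52 ± 0.618 to 0.104 ± 0.0485 CPM, so the sum was mostly COL1A1. The part of these markers in the results below was not tested.

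The cytosolic synthetases were mostly higher and the mitochondrial synthetases mostly lower after indomethacin. Of 19 cytosolic genes tested, 11 rose, 5 fell and 3 did not pass (quasi-likelihood test of edgeR, threshold 0.05 on the p adjusted by Benjamini-Hochberg over all genes), with a median log2 fold change of 0.52. Of 15 mitochondrial genes tested, 12 fell, 1 rose and 2 did not pass, with a median of -0.63. Over all 17200 genes tested, 61.6% passed, 30.6% higher and 31.0% lower, and the median was 0.04. The groups did not overlap for 15 cytosolic genes (11 higher, 4 lower) and 13 mitochondrial genes (2 higher, 11 lower), as for 67.0% of all genes (33.7% higher, 33.3% lower). The last mitochondrial gene, VARS2, had between 1 and 7 counts per library and was left out by the filter on low counts. RNAs of the mitochondrial genome itself took 22.8 to 26.8% of the counts in control and 16.7 to 19.7% in indomethacin libraries, without overlap. With library sizes that leave out these and small structured RNAs, 11 cytosolic genes rose and 5 fell, and 12 mitochondrial genes fell and 1 rose.

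Summed over the genes of each set, the cytosolic synthetases took 3166, 3747 and 3283 CPM in the 3 control libraries and 5902, 5807 and 6150 CPM in the 3 indomethacin libraries. The mitochondrial synthetases took 685, 683 and 731 CPM in control and 425, 419 and 444 CPM in indomethacin. Both sums were apart between the groups, in opposite directions. The cytosolic sum was 4.62, 5.49 and 4.49 times the mitochondrial sum in control, and 13.9 times in each of the 3 indomethacin libraries. These are shares of the counted RNA, so in such bulk samples fewer cells and less RNA per cell cannot be told apart.

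**Figure D1:**
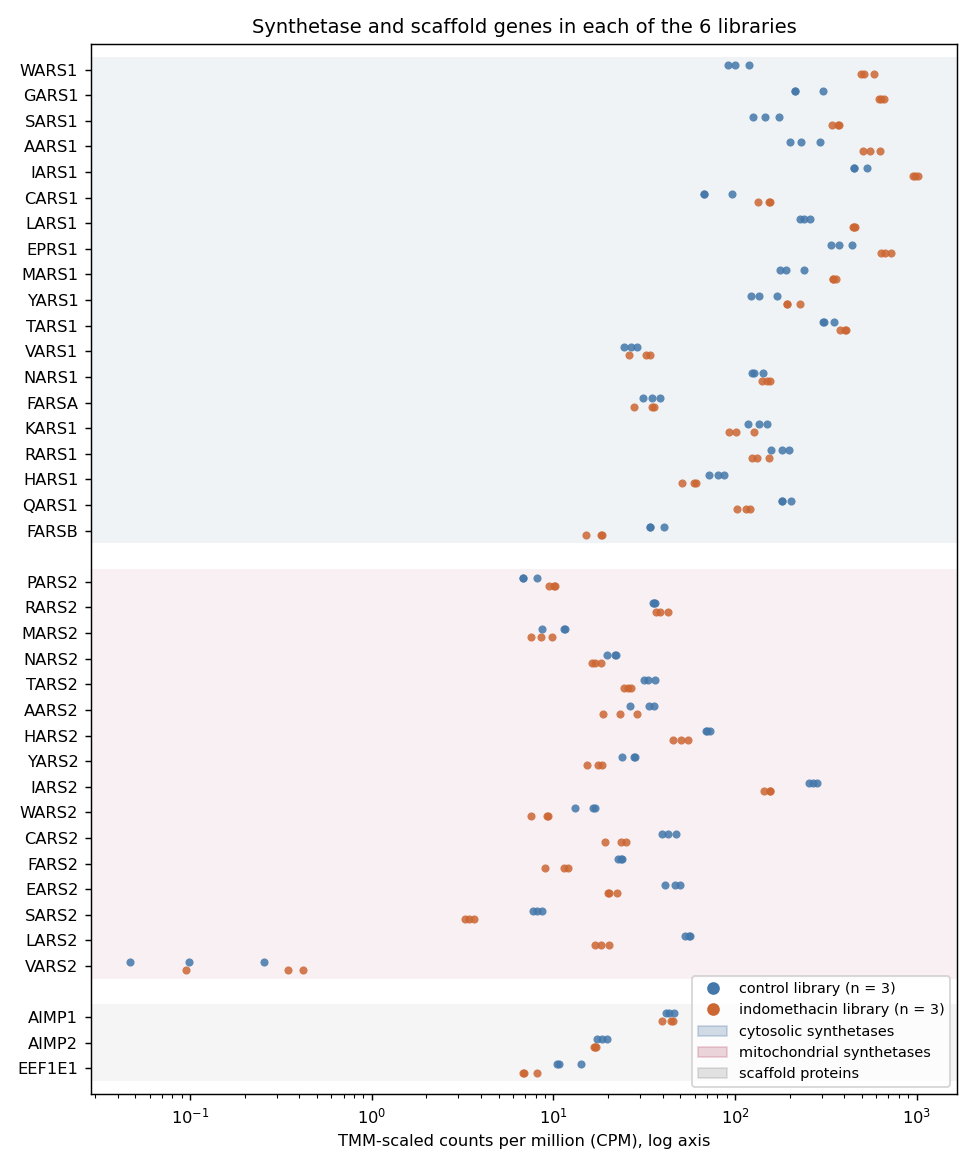
TMM-scaled CPM (log axis) of the 38 genes in each of the 3 control and 3 indomethacin libraries, 1 point per library, ordered within each set by the fold change. WARS1 is the cytosolic gene with the widest gap between groups, and VARS2 lies under 1 CPM in all 6 libraries.

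Several cytosolic synthetase genes are known targets of the transcription factor ATF4, which acts when amino acids are short or the endoplasmic reticulum is stressed, through C/EBP-ATF response elements. The letters TGATGNAA of that element were searched on both strands of the RefSeq promoters (build GRCh38.p14, 250 bases before to 50 after each annotated start), where 33 of the 38 members had an entry. The matches are shown because the members that rose held most of them. Each line gives 30 bases on the strand that reads TGATGNAA, 5′ to 3′, with the match in capitals.
AARS1, chr16:70289675-70289704, plus strand: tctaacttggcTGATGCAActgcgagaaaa
CARS1, chr11:3057407-3057436, plus strand: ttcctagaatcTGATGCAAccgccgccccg
GARS1, chr7:30594834-30594863, minus strand: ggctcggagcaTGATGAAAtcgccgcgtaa
IARS1, chr9:92293692-92293721, plus strand: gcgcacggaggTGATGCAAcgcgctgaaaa
MARS1, chr12:57488053-57488082, minus strand: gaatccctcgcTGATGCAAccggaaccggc
TARS1, chr5:33440956-33440985, minus strand: gctggaccagcTGATGCAAtcgaaaggcgc
NARS1, chr18:57621804-57621833, minus strand: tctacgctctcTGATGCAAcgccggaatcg
YARS2, chr12:32756076-32756105, minus strand: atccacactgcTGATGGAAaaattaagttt

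The element was found in 6 of the 10 members that rose and had a promoter entry, in 1 of the 17 that fell (YARS2) and in 1 of the 6 that did not pass (NARS1). Of all genes with an entry 4.46% held it. Of all genes that rose in these cells 3.56% held it, of those that fell 2.70%, and of those that did not pass 2.44%. In 6 of the 8 members the letters were TGATGCAA. Counted from the start of the entry, the match began at -33 in GARS1 and -13 in IARS1, overlapped the start in CARS1 and MARS1, lay just after it in TARS1 and NARS1, and began at -187 in AARS1 and -197 in YARS2. LARS1 and YARS1, which rose, had no promoter entry, and EPRS1, SARS1, WARS1 and PARS2, which also rose, held no TGATGNAA in this window.

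WARS1, the tryptophanyl synthetase, is known as a gene induced by interferon. One of its annotated starts held the interferon-stimulated response element, found in 4.38% of all genes with an entry and in EARS2 alone among the other 32 members with one. The match, in capitals, began at -55 from that start.
WARS1, chr14:100375383-100375412, minus strand: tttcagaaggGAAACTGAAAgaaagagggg
A match is a description of letters, and no factor's binding was measured here. The core of the nuclear respiratory factor 1 site was held by 3 of 16 cytosolic, 3 of 14 mitochondrial and 1 of 3 scaffold genes with a promoter entry, against 6.98% of all genes with an entry, and 12.4% of those that rose and 13.3% of those that fell.

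WARS1 (ENSG00000140105, chr14:100333790-100376805 on hg38) had the greatest change of the 37 members tested. Its level was 100, 120 and 92.0 CPM in the control libraries and 495, 513 and 583 CPM in the indomethacin libraries. Every indomethacin library was above every control, and the gene rose 5.10-fold (adjusted p = 3.2e-09 by edgeR for a log2 fold change of 2.35, SE 0.13), above 95.8% of all genes tested. Its exons share 287 of 6356 bases with WDR25 on the opposite strand.

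The glycyl, seryl, alanyl and isoleucyl synthetases rose more than 2-fold. GARS1 (chr7:30580533-30634033), which serves cytosol and mitochondria from one gene, had 214, 304 and 215 CPM in control and 665, 619 and 640 CPM in indomethacin libraries (adjusted p = 1.2e-06 by edgeR for a log2 fold change of 1.39, SE 0.14). The seryl synthetase SARS1 (chr1:109213918-109238182) had 126, 175 and 147 CPM in control and 342, 371 and 372 CPM in indomethacin (adjusted p = 9.6e-07 by edgeR for 1.28, SE 0.13). For both genes the groups were far apart. Control replicate 2 was the highest of the controls for both, as for every other cytosolic gene that rose, so these genes shared a deviation of that library. GARS1 shares 312 of 17366 exonic bases with GARS1-DT on the opposite strand, which had 242 to 328 counts in control and 348 to 542 in indomethacin libraries. AARS1, the alanyl synthetase (chr16:70251983-70289707), had 201, 294 and 231 CPM in control and 507, 554 and 628 CPM in indomethacin, a log2 fold change of 1.22 ± 0.14 (SE). IARS1, the isoleucyl synthetase (chr9:92210207-92293854), had 454, 536 and 451 CPM in control and 1018, 975 and 956 CPM in indomethacin (1.03 ± 0.11, SE). IARS1 thus had the highest CPM of the cytosolic set in both groups, a count that also grows with the length of a transcript.

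The other cytosolic enzymes that rose did so by less than 2-fold. The cysteinyl synthetase CARS1 went from 76.8 ± 16.5 to 148 ± 11.8 CPM (mean ± SD, n = 3), the leucyl synthetase LARS1 from 242 ± 16.2 to 452 ± 6.03, the bifunctional EPRS1 from 382 ± 52.1 to 676 ± 42.6 and the methionyl synthetase MARS1 from 202 ± 32.8 to 350 ± 7.67. Their log2 fold changes were 0.94, 0.90, 0.82 and 0.79. MARS1 shares 355 of its 7028 exonic bases with the stress gene DDIT3 on the opposite strand, and DDIT3 itself had 222 to 378 counts in control and 2746 to 3847 in indomethacin libraries. The part of those reads in the MARS1 value was not tested. The tyrosyl synthetase YARS1 went from 143 ± 24.4 to 205 ± 19.5 CPM (0.52). The threonyl synthetase TARS1, at 321 ± 25.5 and 398 ± 15.2 CPM, rose the least of the 11 (adjusted p = 0.020 by edgeR for 0.31, SE 0.11). For TARS1 the edgeR adjusted p was 0.15 without control replicate 1, 0.12 without control replicate 3, 0.059 without indomethacin replicate 1 and 0.20 with no filter on low counts.

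The asparaginyl, valyl and phenylalanyl alpha genes did not pass. NARS1 was at 132 ± 9.85 and 149 ± 8.19 CPM (log2 fold change 0.18, SE 0.10) and VARS1 at 26.6 ± 2.05 and 30.8 ± 4.27 CPM (0.21, SE 0.13). Both passed with upper-quartile scaling (0.30, edgeR adjusted p = 0.022, and 0.32, edgeR adjusted p = 0.034), which raised the median of all genes by 0.12. FARSA, which encodes the alpha subunit of the phenylalanyl enzyme, was at 34.9 ± 3.63 and 32.9 ± 4.37 CPM (-0.08, SE 0.13), and its sign turned with that scaling (0.032).

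The beta subunit of the same phenylalanyl enzyme went the other way from most of the cytosolic set. FARSB (chr2:222566899-222656092) had 40.8, 34.0 and 34.2 CPM in control and 18.4, 15.2 and 18.5 CPM in indomethacin libraries (adjusted p = 7.0e-06 by edgeR for a log2 fold change of -1.07, SE 0.13). Every indomethacin library was lower than every control. The protein is a tetramer with equal numbers of both subunits, and the ratio of FARSB to FARSA was 1.17, 1.09 and 0.887 in control and 0.659, 0.424 and 0.529 in indomethacin. Each of the 3 indomethacin values lay under every control value (p = 0.1 in a two-sided exact permutation test, the smallest that 3 against 3 can give). The ratio was not planned, and it was chosen after its values were seen.

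Of the other cytosolic enzymes that fell, the glutaminyl synthetase QARS1 (chr3:49095932-49105130) changed most. It had 180, 182 and 204 CPM in control and 103, 115 and 120 CPM in indomethacin libraries (adjusted p = 3.7e-05 by edgeR for a log2 fold change of -0.74, SE 0.11), with no overlap. The histidyl synthetase HARS1 went from 79.7 ± 7.31 to 57.0 ± 5.21 CPM (-0.48), and 1090 of its 14155 exonic bases are shared with WDR55 on the opposite strand. The arginyl synthetase RARS1 went from 180 ± 20.4 to 137 ± 15.8 CPM (-0.39, edgeR adjusted p = 0.011), a call lost without indomethacin replicate 2 (-0.33, edgeR adjusted p = 0.062) and with upper-quartile scaling (-0.28, edgeR adjusted p = 0.056). The lysyl synthetase KARS1 had 151, 118 and 135 CPM in control and 93.1, 102 and 127 CPM in indomethacin, so that the groups overlapped (adjusted p = 0.044 by edgeR for -0.33, SE 0.13). The edgeR adjusted p of KARS1 was 0.095 without control replicate 1, 0.065 without control replicate 3, 0.11 without indomethacin replicate 1 and 0.14 without indomethacin replicate 2, and the call was lost as well with upper-quartile scaling (0.17) and with a filter of 1 CPM (0.076).

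**Figure D2:**
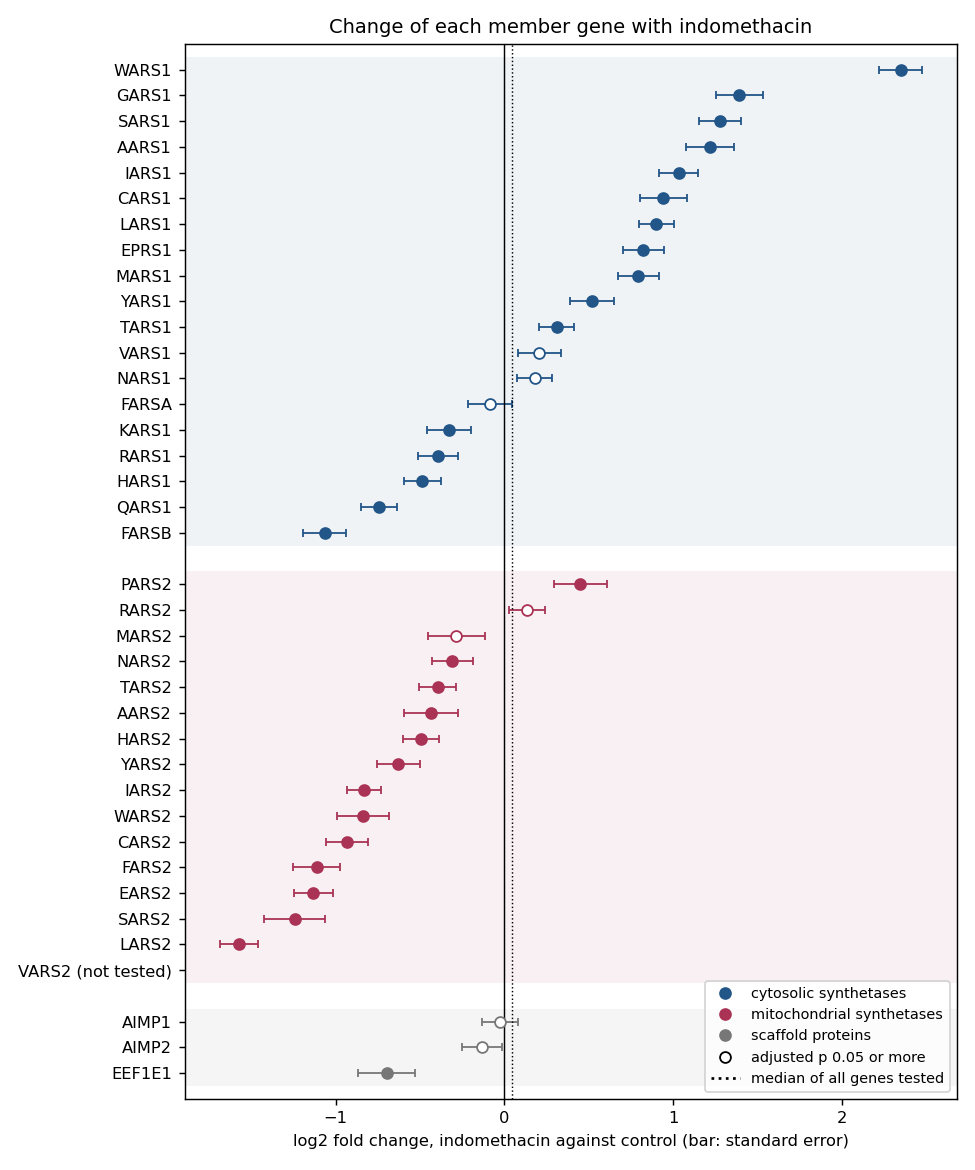
Log2 fold change (points) with its standard error (bars) for the 37 members tested, filled where the edgeR adjusted p was under 0.05. The cytosolic genes span -1.07 to 2.35 and the mitochondrial genes -1.57 to 0.45, and the dotted line marks the median of all genes tested, 0.04.

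The multi-synthetase complex gathers 7 of the cytosolic enzymes listed here with the scaffold proteins AIMP1, AIMP2 and EEF1E1. Its 10 genes were split, with 4 higher (IARS1, LARS1, EPRS1 and MARS1), 4 lower (QARS1, RARS1, KARS1 and EEF1E1) and a median of -0.08, shares near those of all genes (30.6% higher and 31.0% lower). Without indomethacin replicate 2 the count of lower genes in the complex was 2, and with upper-quartile scaling it was also 2. Of the 7 enzymes of the complex taken without the scaffold proteins, 4 rose and 3 fell (median 0.79). Of the 12 cytosolic genes outside the complex, all of them for enzymes, 7 rose and 2 fell (median 0.41). The difference from the complex was not tested. Among the scaffold genes, EEF1E1, also called AIMP3, had 14.1, 10.5 and 10.8 CPM in control and 8.08, 6.81 and 6.91 CPM in indomethacin libraries (adjusted p = 0.0026 by edgeR for a log2 fold change of -0.70, SE 0.17), with all of the latter lower. It shares 393 of 2088 exonic bases with the read-through gene EEF1E1-BLOC1S5 on the same strand, listed at 0 in all 6 libraries. AIMP1 was at 43.9 ± 2.21 and 43.1 ± 3.25 CPM (-0.02, SE 0.11) and AIMP2 at 18.6 ± 1.11 and 16.9 ± 0.187 CPM (-0.13, SE 0.12, with no overlap), and neither passed. AIMP2 shares 532 of 1828 exonic bases with EIF2AK1 on the opposite strand, and AIMP1 476 of 9258 with TBCK. The sign of AIMP1 turned with upper-quartile scaling (0.093), a filter of 1 CPM (0.024) and without indomethacin replicate 2 (0.034).

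The leucyl enzyme led the falls of the mitochondrial set. LARS2 (ENSG00000011376, chr3:45388561-45554726) had 56.2, 52.8 and 56.9 CPM in control and 20.30, 18.35 and 17.004 CPM in indomethacin libraries. It fell 2.98-fold (adjusted p = 4.7e-08 by edgeR for a log2 fold change of -1.57, SE 0.11), with the groups far apart. The glutamyl enzyme EARS2 had 46.5, 41.2 and 49.6 CPM in control and 20.1, 20.3 and 22.4 CPM in indomethacin (adjusted p = 1.5e-06 by edgeR for -1.13, SE 0.12). The seryl enzyme SARS2 had 8.68, 8.15 and 7.69 CPM in control and 3.42, 3.28 and 3.67 CPM in indomethacin (adjusted p = 3.8e-05 by edgeR for -1.24, SE 0.18). Both were lower in every indomethacin library than in any control. EARS2 shares 203 of 6990 exonic bases with GGA2 on the same strand. SARS2 shares 1492 of 3098 exonic bases with a gene on the same strand, ENSG00000269547, listed at 0 in all 6 libraries, and its level is therefore uncertain.

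The isoleucyl enzyme IARS2 (chr1:220094132-220148041) was by far the highest of the mitochondrial set, at 257, 270 and 283 CPM in control and 155, 145 and 156 CPM in indomethacin libraries (adjusted p = 7.3e-06 by edgeR for a log2 fold change of -0.83, SE 0.10). The phenylalanyl FARS2, a single-chain enzyme unlike its cytosolic counterpart, went from 23.4 ± 0.516 to 10.8 ± 1.66 CPM (-1.11), the cysteinyl CARS2 from 43.2 ± 3.80 to 22.6 ± 2.93 (-0.93), the tryptophanyl WARS2 from 15.6 ± 2.03 to 8.72 ± 1.01 (-0.84) and the tyrosyl YARS2 from 26.6 ± 2.42 to 17.2 ± 1.64 (-0.63). In these 4 genes, too, the groups did not overlap. Smaller falls were those of the histidyl HARS2 (70.8 ± 2.02 to 50.4 ± 4.78 CPM, -0.49, sharing 152 of 3719 exonic bases with ZMAT2 on the same strand) and the threonyl TARS2 (33.8 ± 2.37 to 25.7 ± 1.08, -0.39).

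The calls of the alanyl and asparaginyl mitochondrial enzymes were the 2 falls of the mitochondrial set that did not hold under every alternative. AARS2 had 33.7, 26.4 and 35.7 CPM in control and 18.7, 23.3 and 28.96 CPM in indomethacin libraries, which overlap (adjusted p = 0.030 by edgeR for a log2 fold change of -0.44, SE 0.16). NARS2 went from 21.3 ± 1.24 to 17.2 ± 1.01 CPM with no overlap (-0.31, edgeR adjusted p = 0.039). For AARS2 the edgeR adjusted p was 0.0504 without control replicate 1, 0.090 without control replicate 3, 0.086 without indomethacin replicate 1 and 0.080 without indomethacin replicate 2, and the call was also lost with upper-quartile scaling (0.092). For NARS2 the edgeR adjusted p was 0.060 without control replicate 1, 0.076 without control replicate 3, 0.11 without indomethacin replicate 2 and 0.059 without indomethacin replicate 3, and the call was also lost with upper-quartile scaling (0.19), with a filter of 1 CPM (0.069) and with DESeq2 (DESeq2 adjusted p = 0.0504).

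The prolyl enzyme PARS2 was the 1 mitochondrial synthetase called higher. It had 6.82, 8.10 and 6.80 CPM in control and 9.41, 10.0 and 10.3 CPM in indomethacin libraries (adjusted p = 0.023 by edgeR for a log2 fold change of 0.45, SE 0.16), with no overlap. That call was lost under 5 alternatives: the edgeR adjusted p of PARS2 was 0.10 when control replicate 1 or control replicate 3 was left out, 0.057 without indomethacin replicate 2, 0.051 without indomethacin replicate 3 and 0.16 with no filter. The arginyl RARS2 was at 35.9 ± 0.445 and 39.4 ± 3.11 CPM (0.13, SE 0.11) and the methionyl MARS2 at 10.5 ± 1.66 and 8.65 ± 1.19 CPM (-0.28, SE 0.17), and neither passed. MARS2 passed without control replicate 1 (-0.46, edgeR adjusted p = 0.038). The valyl VARS2 had 2, 6 and 1 counts in control and 2, 7 and 7 in indomethacin libraries, near the floor of 3 counts, so no change was detectable from these counts. It shares 4073 of 6467 exonic bases with ENSG00000288473, a gene on the same strand listed at 0 in all 6 libraries. The VARS2 level is therefore uncertain.

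Per length, the order of levels differed from that in CPM. CPM per kb of exonic length was used to compare genes, with the length in the deposited tables, which joins the exons of all transcripts of a gene and so understates genes with many alternative exons. In control libraries TARS1 (75.3 ± 5.98 CPM per kb, mean ± SD), EPRS1 (71.8 ± 9.79) and the mitochondrial IARS2 (65.3 ± 3.17) were highest. The libraries of EPRS1 overlapped those of both, while every control library of TARS1 was above every one of IARS2. RARS1 (52.6 ± 5.98), QARS1 (40.2 ± 2.79) and SARS1 (38.7 ± 6.39) followed. In indomethacin libraries EPRS1 was highest (127 ± 8.01 CPM per kb), then SARS1 (93.9 ± 4.45), TARS1 (93.4 ± 3.58) and WARS1 (83.4 ± 7.31), which in control stood at 16.4 ± 2.26. Apart from VARS2, SARS2 had the lowest value listed, at 2.64 ± 0.159 CPM per kb in control and 1.12 ± 0.0626 in indomethacin, with PARS2 next in control at 3.07 ± 0.317. Since the SARS2 count is uncertain, as given above, so is this order.

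For each amino acid with a gene in both sets, the CPM of the cytosolic gene was divided by that of its mitochondrial partner in each library. Of 16 such ratios, over 15 mitochondrial genes, 13 were higher in all indomethacin than in all control libraries, 1 was lower and 2 overlapped. The share without overlap among ratios of other gene pairs was not computed. Among single genes tested, 67.0% did not overlap between the groups. The ratios restate the levels of the members given above and are not a separate result. In 9 pairs the cytosolic gene rose and the mitochondrial gene fell. The change was greatest for tryptophan, where WARS1 was 5.94, 7.23 and 6.95 times WARS2 in control and 65.5, 54.6 and 63.4 times in indomethacin libraries. For serine the ratio was 14.5, 21.4 and 19.1 in control and 99.8, 113 and 101 in indomethacin, and for leucine 4.04, 4.90 and 4.22 against 22.3, 24.3 and 26.9. These 3 ratios were 9.13, 5.78 and 5.59 times as high with indomethacin (geometric means). The serine ratio rests on SARS2, whose level is uncertain, as given above. Each ratio that did not overlap had p = 0.1, the smallest an exact two-sided permutation test of 3 against 3 can give, or 0.11 adjusted over the 16, so none could pass.

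**Figure D3:**
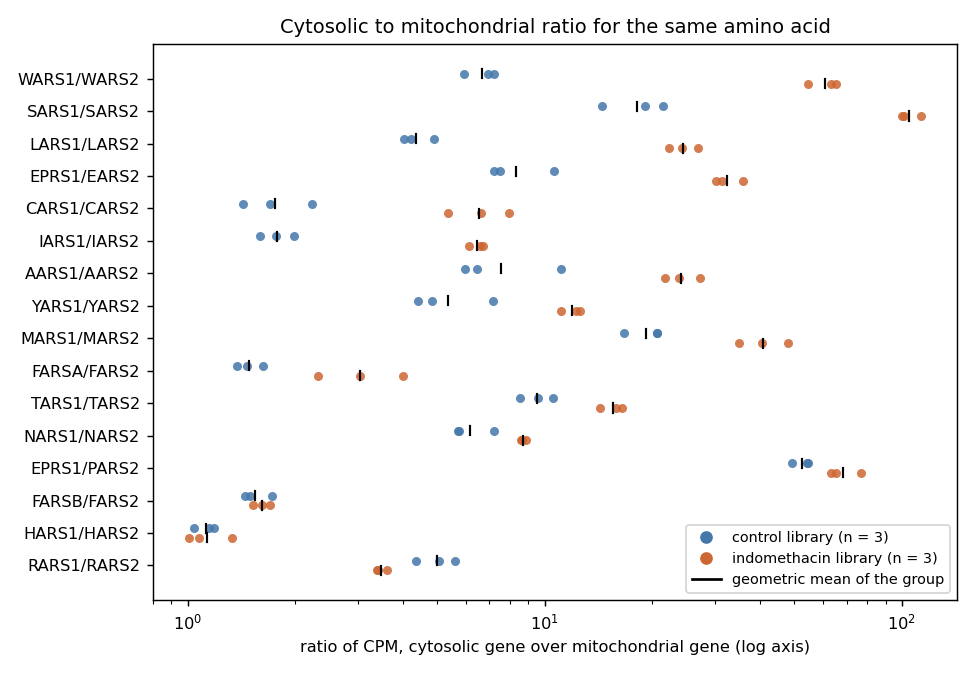
Ratio of the CPM of each cytosolic gene to that of the mitochondrial gene for the same amino acid (log axis), 1 point per library (n = 3 per group), with the geometric mean of each group as a line. Of the 16 ratios 13 lie higher in every indomethacin library, RARS1/RARS2 lies lower, and HARS1/HARS2 and FARSB/FARS2 overlap.

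Arginine was the exception in direction. RARS1 was 5.61, 4.35 and 5.07 times RARS2 in control and 3.40, 3.39 and 3.62 times in indomethacin libraries. For histidine the ratio of HARS1 to HARS2 was 1.15, 1.04 and 1.19 in control and 1.33, 1.01 and 1.07 in indomethacin, with a log2 change of 0.01. These genes lie head to head on chromosome 5, with RefSeq starts at 140691370 on the minus strand (HARS1) and 140691455 on the plus strand (HARS2), so 84 bases lie between them. They fell by a similar size, with log2 fold changes of -0.48 and -0.49, and share 108 exonic bases on opposite strands. For phenylalanine the result differed by subunit, since the FARSA ratio to FARS2 went from 1.49 to 3.05 (geometric means) and the FARSB ratio from 1.55 to 1.61. The ratios for histidine and for FARSB gave p = 1 and p = 0.6 in the exact permutation test.

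Glutamate and proline share one cytosolic protein but have separate mitochondrial enzymes. EPRS1 was 7.22, 10.6 and 7.49 times EARS2 in control and 35.9, 31.4 and 30.1 times in indomethacin libraries. Against PARS2 it was 49.3, 54.1 and 54.7 times in control and 76.6, 63.4 and 65.4 times in indomethacin. Both ratios were higher in every indomethacin library, the first 3.89-fold and the second 1.30-fold.

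The catalytic classes are built on unrelated folds. Of 17 class I genes tested 6 rose and 8 fell (median -0.28), and of 16 class II genes 5 rose and 9 fell (median -0.32), where 30.6% of all genes rose and 31.0% fell. Each class mixes cytosolic and mitochondrial genes, and those 2 sets had medians of 0.52 and -0.63. The difference between the classes was not tested. EPRS1 holds a domain of each and was left out of both.

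Of 53 other genes of tRNA supply and charging that were tested, 17 rose and 24 fell, against the background of 30.6% and 31.0% given above. In mitochondria, where glutamine and the starting methionine are finished on the tRNA, 3 of 4 genes fell. They were GATB (21.5 ± 1.86 to 8.86 ± 0.824 CPM, log2 fold change -1.27) and QRSL1 (26.7 ± 1.48 to 16.6 ± 0.309, -0.69) of the amidotransferase and the formyltransferase MTFMT (-0.67). Of the factors that bring charged tRNA to the mitochondrial ribosome or move it on, TUFM went from 244 ± 21.3 to 133 ± 16.6 CPM (-0.87) and GFM1 from 65.5 ± 3.81 to 34.4 ± 2.61 (-0.93), while TSFM, at 0.587 ± 0.0898 and 0.966 ± 0.322 CPM, did not pass. The TSFM level is uncertain, with 95 counts in all and 2160 of 3210 exonic bases shared with a gene on the same strand. In the cytosol 2 of 3 such genes tested rose, EEF1D (0.48) and EEF1B2 (0.35), and EEF1A1 did not pass (0.25, edgeR adjusted p = 0.12). The products of EEF1D and EEF1B2 recharge EEF1A1 with GTP. For EEF1B2 the edgeR adjusted p was 0.079 without control replicate 1 and 0.091 without control replicate 2, so its call was lost. EEF1G, a subunit that every cell uses, had 3 counts in all and shares 2632 of 2639 exonic bases with another gene on the same strand, so low counts here do not show that a gene is silent.

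Genes that make and export tRNA mostly fell. Of 14 tested, 11 fell and 2 rose (median -0.70), where 31.0% of all genes fell and 30.6% rose. POP1, a subunit of the RNase P that trims nuclear tRNA precursors, went from 26.3 ± 3.09 to 5.89 ± 0.591 CPM (log2 fold change -2.16), and HSD17B10, part of the mitochondrial RNase P, from 50.5 ± 1.40 to 23.7 ± 2.67 (-1.09). The exporter of tRNA from the nucleus, XPOT, rose from 200 ± 40.0 to 504 ± 20.2 CPM (adjusted p = 1.3e-06 by edgeR for 1.34, SE 0.13). Of 12 genes of RNA polymerase III, which transcribes tRNA genes, 5 rose and 5 fell (median -0.07), or 41.7% each, not far from those shares. POLR3D was at 0.99 and POLR3K at -1.55. Of 5 genes of editing and related steps, DTD2, a proofreading deacylase, fell (-0.96) and the others, PUS1 (0.14) and AARSD1 (-0.46) among them, did not pass. AARSD1, with 84 counts in all, shares 1267 of 3704 exonic bases with a gene on the same strand, so its level is uncertain.

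Of 12 genes of the sensing of uncharged tRNA and the response to it, 8 rose and 2 fell (median 1.04). Of all genes tested 30.6% rose and 31.0% fell. EIF2AK4, the kinase GCN2 that binds uncharged tRNA, fell from 115 ± 8.26 to 51.5 ± 6.25 CPM (adjusted p = 1.1e-06 by edgeR for a log2 fold change of -1.16, SE 0.12). The other gene that fell was EIF2S1 (-0.64), and GCN1 (-0.10) and IMPACT (-0.30) did not pass. The genes that rose were thus those of the response. ATF4 also acts in stress of the endoplasmic reticulum, as given above, and what set off the response here was not tested. ATF4 had 387, 456 and 377 CPM in control and 678, 764 and 692 CPM in indomethacin libraries (0.81, SE 0.12), with every indomethacin library higher. CEBPB, a partner factor of ATF4, went from 18.3 ± 4.65 to 79.0 ± 15.1 CPM (2.11) and DDIT3 had a log2 fold change of 3.60. ATF4, EIF2S1, GCN1 and IMPACT are given here outside the rule for named genes and were chosen after their values were seen.

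**Figure D4:**
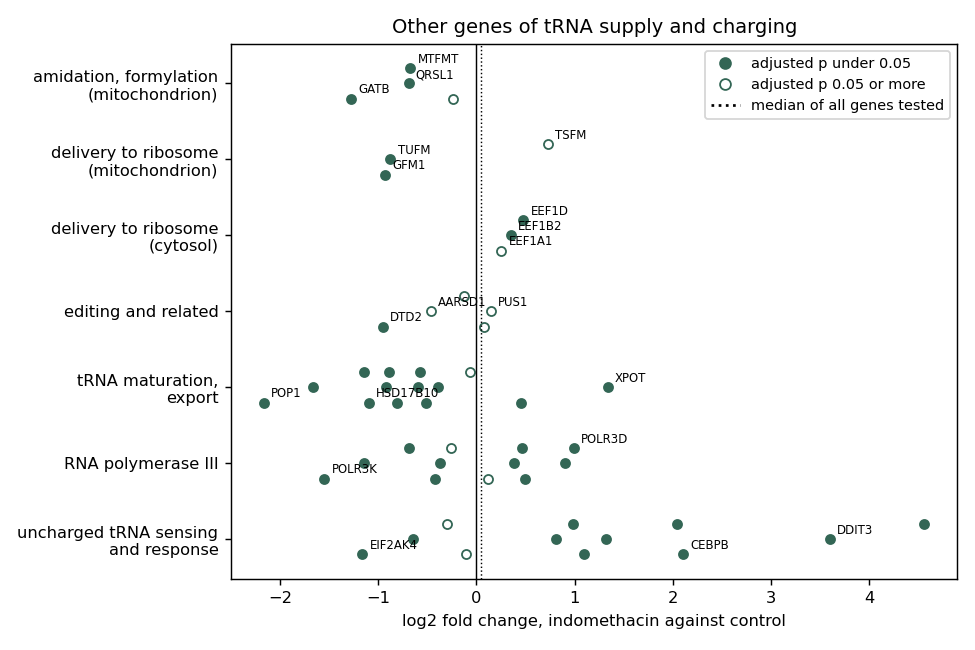
Log2 fold change of the other genes of tRNA supply and charging, 1 point per gene, filled where the edgeR adjusted p was under 0.05. In each list 2 or 3 genes are named. XPOT (1.34) stands apart from the falling genes of tRNA maturation. EIF2AK4 (-1.16) is the lower of the 2 genes that fell in the list of sensing and response.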

How the data were processed

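Total RNA of AGS cells was sequenced in 6 libraries after depletion of ribosomal RNA with a stranded kit, per the labels' protocols. Trimming with cutadapt 1.16, alignment with HISAT2 2.1.0, counting with featureCounts and build hg38 are named per the submitters' processing notes. Strand setting, annotation release and the handling of reads in more than 1 gene: not given in the sources used here. The deposited values are the authors' raw counts per gene, with exon coordinates and length, per the file headers. Exons of 19 of the 38 members overlap a counted gene on the opposite strand and those of 9 overlap a gene on the same strand, so values of overlapping genes are uncertain.

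From every table, 3 broken lines were left out. Genes passing filterByExpr (17200) were scaled by TMM and tested with edgeR 4.0.16 (R 4.3.3), group only, with Benjamini-Hochberg adjustment over all genes. Within groups, chi-square over degrees of freedom was 6.99 to 21.9 for pairs of libraries, so none was a repeat of another within sampling noise. A count of 3, the floor, was 0.129 to 0.171 CPM and covers counting error only. The alternatives were limma-voom 3.58.1, DESeq2 1.42.0, RLE and upper-quartile factors, library sizes that leave out RNAs of the mitochondrial genome and small structured RNAs, other filters, a block for the replicate number, and leaving out each library. Counts were simulated with the same spread beyond counting noise for every gene (16106 genes tested, 200 changed). On these edgeR recovered 25.3%, 78.2% and 98.4% of genes changed 1.5-, 2- and 4-fold, with 10 of 135 calls false. In the data 10591 genes passed, so the adjustment was less strict, and these shares do not give the power for the members. All members may be named, as may the 3 genes of smallest adjusted p in each other list and genes whose exons overlap a member. One gene that this rule takes in is not reported here. The members, lists, motifs and tests were chosen with earlier results of these data known.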

Additional observations from a re-analysis of the deposited data

How the results depend on the processing

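Of the 30 members called, 24 kept their direction and their side of the threshold under all 14 alternatives (limma-voom, DESeq2, RLE and upper-quartile factors, other library sizes and filters, the block and each library left out), and the 6 others are those given above with the value of each alternative that ended the call. Over the 37 members tested, 482 of 518 alternative values had the same direction and call, 29 lost a call, 3 gained one and 4 changed sign (FARSA 0.032 and AIMP1 0.093 with upper-quartile factors, AIMP1 0.024 with a filter of 1 CPM and 0.034 without indomethacin replicate 2, in a range of -0.097 to 0.034 with 1 library left out). Upper-quartile factors raised the median of all genes by 0.12. With no filter that median was 0.15 higher, but it was taken over 39859 genes, not 17200. The cytosolic median was then lower, at 0.41 against 0.52, as was the scaffold median, at -0.24 against -0.13. With upper-quartile factors 3 cytosolic synthetases and 2 genes of the multi-synthetase complex fell, and with no filter 0 mitochondrial synthetases rose; the cause was not tested. With 1 library left out, 10 to 11 cytosolic synthetases rose and 3 to 5 fell, 10 to 12 mitochondrial synthetases fell and 0 to 1 rose, 2 to 4 genes of the complex fell, and 13 to 14 of the 16 ratios were higher without overlap. Of the other genes named, EEF1A1 passed with limma-voom, DESeq2 and upper-quartile factors, EEF1B2 lost its call with no filter as well, and AARSD1 turned to 0.049 without control replicate 1, in a range of -0.83 to 0.049. Same-numbered libraries did not deviate together (correlations 0.023, 0.012 and 0.13), and not every library correlated best with its own number. With the replicate number as a block 10601 genes passed, against 10591, with 11 cytosolic synthetases higher and 5 lower and 12 mitochondrial synthetases lower and 1 higher, as without the block.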
